A study of Mus musculus with 4 samples.

Results

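The BCL2 family decides whether a cell opens its mitochondria and dies by the intrinsic route. Described here are 10 of its genes, taken by symbol from a table of 24497 features: 4 survival members (Bcl2, Bcl2l1, Mcl1, Bcl2a1b), 2 pore-forming members (Bax, Bak1) and 4 BH3-only members (Bcl2l11, Bbc3, Pmaip1, Bid). Treated mice were given CS1, a small molecule that blocks FTO (an enzyme that takes methyl marks off RNA), as intraperitoneal doses of 5 mg/kg on every other day for 20 days, and control mice were given PBS alone. All were sub-lethally irradiated recipients (320 rads) of CD45.2+ bone marrow cells from primary MLL-AF9 acute myeloid leukaemia, in which the MLL-AF9 fusion gene drives the disease, and treatment began a week after transplant. Poly(A) RNA was sequenced from spleen cells enriched with a CD45.2 antibody and beads, as 2 libraries per group. For CS1 replicate 2 the title gives CS1 but the treatment entry gives CS2; it was kept with CS1. Nothing in the labels says whether the replicates are different mice. The p-values therefore reflect only how far these libraries spread, which may be technical. The labels give neither ages nor strains of the mice, nor whether the leukaemia cells of both groups came from the same donors.

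In this family, survival proteins such as BCL2, BCL-XL (from Bcl2l1), MCL1 and A1 (from Bcl2a1 genes) hold the pore formers BAX and BAK in check. BH3-only proteins, which are induced or activated by stress, bind the survival proteins or act on the pore formers, and BAX and BAK then perforate the outer mitochondrial membrane, release cytochrome c and start the caspase cascade. Myeloid leukaemia cells commonly lean on MCL1 and BCL2, which is why BCL2 blockers are used in acute myeloid leukaemia.

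The deposited values were taken as TPM (a transcript's share of its library, normalized for length), so levels can be compared between genes. They summed to 977973 and 978426 in CS1 and to 986084 and 986345 in PBS. Read depth is unknown. A feature was tested, with limma on log2(TPM + 1), if 2 or more libraries had 1 TPM or more of it, which 11866 features did, all 10 members among them. All 8 myeloid leukaemia markers checked (Ptprc, Itgam, Cd33, Kit, Spi1, Cebpa, Hoxa9 and Meis1) were detected, with summed levels of 2338 to 2368 TPM in CS1 and 3054 to 3058 TPM in PBS. Of these Kit, Hoxa9, Meis1 and Cd33 were higher in CS1 (mean ratios 3.64, 2.34, 1.40 and 1.16), and the more abundant Itgam, Ptprc and Spi1 were lower (0.516, 0.541 and 0.833). Other myeloid markers differed between the groups. The 9 late neutrophil markers summed to 18153 and 18165 TPM in CS1 and to 5504 and 5584 TPM in PBS (6 higher, 3 lower in CS1), and the 7 monocyte and macrophage markers to 8668 and 8692 TPM in CS1 and to 16424 and 16562 TPM in PBS (1 higher, 6 lower). Their part in the differences below was not tested, and in bulk RNA fewer cells of a type and less RNA per cell cannot be told apart.

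Differences between CS1 and PBS were widespread in these libraries: 67.0% of tested features passed at an adjusted p under 0.05, 35.3% higher and 31.6% lower in CS1, and the groups did not overlap for 84.4%. Against that background 7 of the 10 members passed, 3 higher and 4 lower, and 9 of 10 did not overlap, so the share of members that changed is near the background share. The members' median log2 fold change was -0.12, against 0.04 over all tested features. Of the BH3-only members Pmaip1 and Bbc3 rose while Bcl2l11 and Bid did not pass. Both pore-forming members fell, though the call of Bax was lost under 6 alternatives, and of the survival members Bcl2 rose while Mcl1 and Bcl2a1b fell.

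**Figure D1:**
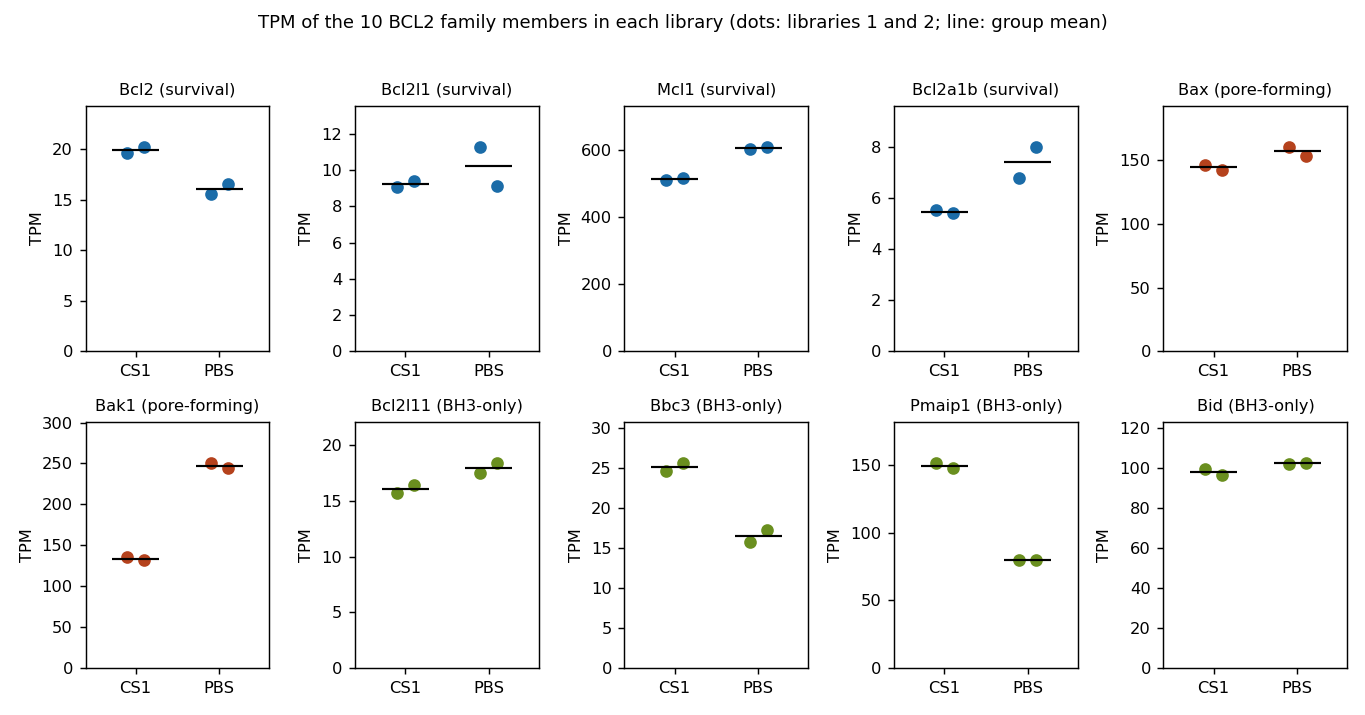
TPM (y axis, from 0) of each of the 10 members in the CS1 and PBS libraries; dots are the 2 libraries of a group and the line is their mean. Pmaip1 and Bbc3 sit higher and Bak1 lower in CS1, with replicates close together, whereas Bcl2l1 overlaps between the groups.

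Pmaip1, which encodes NOXA, a BH3-only protein that mainly binds MCL1 and A1, had the largest rise of the 10 members. Its level was 151 and 148 TPM in CS1, against 79.5 and 79.9 TPM in PBS. The groups lay far apart, with a mean ratio of 1.88 and a log2 fold change of 0.90 ± 0.03 (SE, limma adjusted p = 6e-06). Of all tested features 6.5% rose by more. Bbc3, which encodes PUMA, a BH3-only protein that binds all survival members and is a classical p53 target, reached 24.6 and 25.6 TPM in CS1, against 15.7 and 17.3 TPM in PBS. Both CS1 libraries exceeded both PBS libraries, with a log2 fold change of 0.58 ± 0.07 (SE, limma adjusted p = 0.000634).

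The remaining BH3-only members did not pass. Bcl2l11, which encodes BIM, another binder of all survival proteins, stood at 15.7 and 16.4 TPM in CS1 and at 17.5 and 18.4 TPM in PBS. Its groups did not overlap, and the log2 fold change was -0.15 with a 95% interval of -0.31 to 0.002 (limma adjusted p = 0.0738). It passed as lower in CS1 after TMM rescaling (trimmed mean of M values) of the libraries (adjusted p = 0.0259) and after quantile normalization (0.0169), within a range of 0.0169 to 0.298 across alternatives. Bid, whose protein is cut by caspase 8 to link death receptors to mitochondria, stood at 99.2 and 96.4 TPM in CS1 and at 102.0 and 102.3 TPM in PBS. This difference, a log2 fold change of -0.06 with a 95% interval of -0.13 to 0.01, did not pass (limma adjusted p = 0.105), and its sign depended on scaling: the log2 fold change was -0.13 after TMM rescaling (adjusted p = 0.00772) but 0.03 after quantile normalization and 0.01 with TPM recomputed without short RNAs, haemoglobin and ribosomal protein genes. The range of adjusted p across Bid's alternatives was 0.00772 to 0.722. Bid shares 628 exon bases with Bcl2l13 on the opposite strand, and nothing here says whether reads were counted by strand.

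Since Bbc3 was the member with the largest rise after Pmaip1 and Bak1 the one with the largest fall, a promoter window of each is shown, running from 250 bases before to 50 bases after a RefSeq start (GRCm38.p6). The Bbc3 window is chr7:16309333-16309632 (plus strand), the most upstream of 3 RefSeq starts, and the Bak1 window is chr17:27028578-27028877 (minus strand). Both windows lie inside the genes as annotated by GENCODE M21. Their starts are 1190 bases (Bbc3) and 382 bases (Bak1) downstream of the GENCODE starts, whose own promoters are not shown. Capitals mark matches, on either strand, to any of 6 patterns: CAAG and CTTG with any 6 bases between them, CATG and CATG with any 6 bases between them (both of the kind p53 binds), TGACGTCA (cAMP response element), CACGTG (E-box), GAAA and GAAA with any 2 bases between them (interferon-stimulated core) and CCGGAAGT (ETS).
Bbc3: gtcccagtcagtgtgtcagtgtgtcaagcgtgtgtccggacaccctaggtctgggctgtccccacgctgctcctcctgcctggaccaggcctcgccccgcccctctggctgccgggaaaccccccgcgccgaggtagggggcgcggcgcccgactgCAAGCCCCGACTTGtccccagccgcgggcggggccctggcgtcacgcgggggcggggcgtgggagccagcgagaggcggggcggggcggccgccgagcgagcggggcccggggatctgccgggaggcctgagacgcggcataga
Bak1: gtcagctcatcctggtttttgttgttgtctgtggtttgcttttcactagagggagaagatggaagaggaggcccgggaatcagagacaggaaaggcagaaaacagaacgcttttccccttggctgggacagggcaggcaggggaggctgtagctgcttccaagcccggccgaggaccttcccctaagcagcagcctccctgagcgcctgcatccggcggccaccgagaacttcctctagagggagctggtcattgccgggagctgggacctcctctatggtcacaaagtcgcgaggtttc
The Bbc3 window holds 1 match, to the CAAG and CTTG pattern, starting at base 157, and the Bak1 window none. That pattern was added after the window had been read, so its match there was fixed in advance. The pattern is found in 0.6% of 32851 promoter windows, and in 1 of the 14 windows of the 9 members searched. Because of that choice these shares say nothing about the members. The CACGTG pattern is found in 7.2% of all windows and in 2 of those 14, which belong to Bax and to another Bbc3 start, and CCGGAAGT in 3.9% and in 1, of Bcl2l1. The other patterns had no match in the members' windows (0.7%, 1.8% and 3.4% of all windows for the CATG pair, TGACGTCA and the GAAA pair). A match describes the letters and is no evidence of binding.

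Bak1, which encodes the pore former BAK, fell most. It had 136 and 132 TPM in CS1, against 250.3 and 244 TPM in PBS. Replicates differed by far less than the groups, with a mean ratio of 0.541, a log2 fold change of -0.88 ± 0.03 (SE, limma adjusted p = 6.59e-06), and 3.6% of tested features fell by more. Bax, the other pore former, had 147 and 143 TPM in CS1, against 161 and 154 TPM in PBS. Its groups did not overlap but lay close, with a log2 fold change of -0.12 ± 0.03 (SE, limma adjusted p = 0.0195). This call was lost without CS1 replicate 2 (adjusted p = 0.0868), without PBS replicate 1 (0.0963), with the variance trend off (0.0843), without the filter (0.143), after quantile normalization (0.552, with a log2 fold change of -0.03) and with TPM recomputed without short RNAs, haemoglobin and ribosomal protein genes (0.244, at -0.04), and its alternatives ranged over 0.00344 to 0.552. The ratio of Bak1 to Bax, chosen after the values were seen, was 0.927 and 0.923 in CS1 and 1.56 and 1.59 in PBS, so Bak1 was the more abundant pore former in PBS and Bax in CS1.

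Bak1 (chr17:27019810-27029009, GRCm38, minus strand) lies inside the span of Ggnbp1 (chr17:27017987-27037624, plus strand), a gene named here for that overlap after its values were seen. Their annotated exons share 437 bases, and a read-through transcript model also named Ggnbp1 shares 177 bases. Ggnbp1 had 22.6 and 20.7 TPM in CS1, against 3.67 and 4.46 TPM in PBS (log2 fold change 2.16 ± 0.10, SE, limma adjusted p = 2.52e-05). The overlapping genes therefore moved in opposite directions. It is not known whether reads were counted by strand, so the value of each is uncertain to the extent of the shared bases. Bcl2, Bcl2a1b and Bax also share annotated exon bases with genes that were not tested. Bcl2 shares 558 with D630008O14Rik on the opposite strand. Bcl2a1b shares 401 with Gm29094 and Bax 192 with Gm45808, both on the same strand, which counting by strand would not separate.

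**Figure D2:**
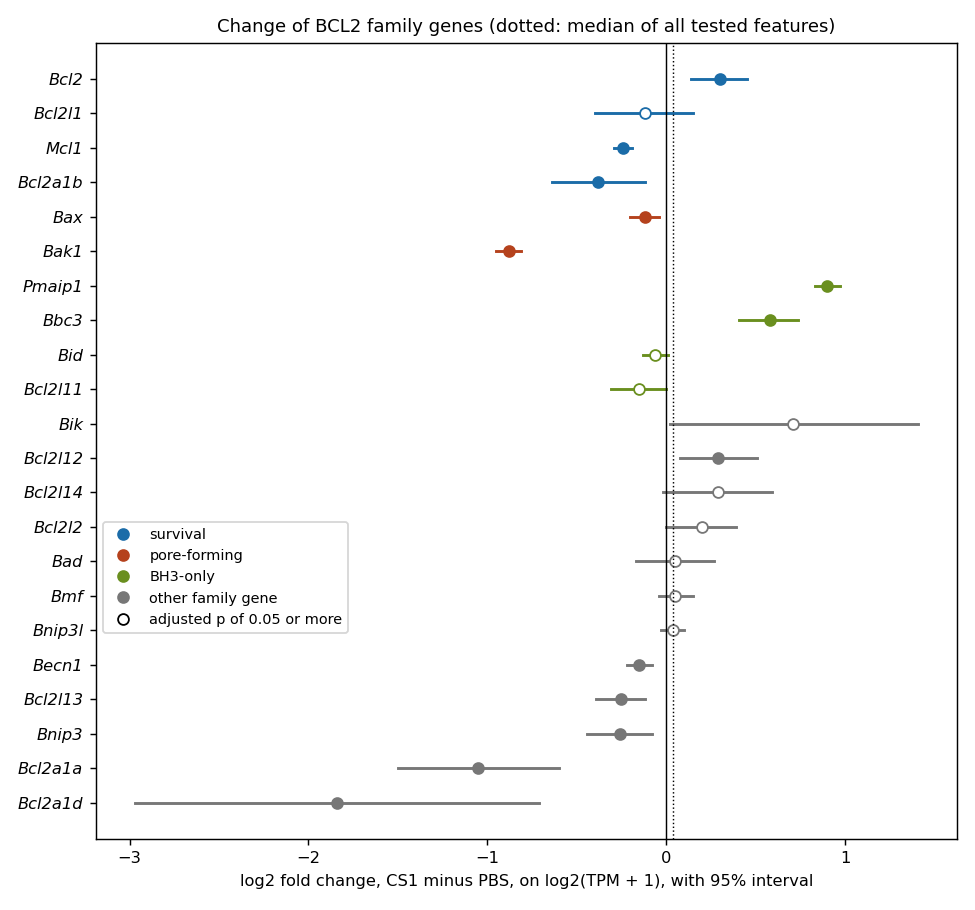
Log2 fold change, CS1 minus PBS, on the log2(TPM + 1) scale (x axis, with 95% intervals) for the 10 members by role and for 12 other tested BCL2 family genes; open circles did not pass at an adjusted p under 0.05 and the dotted line is the median of all tested features (0.04). Pmaip1 (0.90) and Bak1 (-0.88) lie farthest from 0 among the 10 members, and Bcl2a1a and Bcl2a1d lie lower still, with wide intervals.

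Mcl1, whose short-lived protein holds BAK and BIM, was the most abundant member in every library. It had 511 and 518 TPM in CS1, against 604 and 610.2 TPM in PBS. Replicates differed by far less than the groups, and the fall was modest, with a mean ratio of 0.847 and a log2 fold change of -0.24 ± 0.02 (SE, limma adjusted p = 0.000176). After quantile normalization the fall was -0.11 (adjusted p = 0.00289, range 0.000119 to 0.00984 across alternatives). Mcl1 supplied 93.7% of the summed survival TPM in each CS1 library, against 94.7% and 94.8% in PBS. Gene-level values do not separate its splice forms, nor those of Bcl2l1.

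Bcl2 itself rose. Its level was 19.6 and 20.3 TPM in CS1, against 15.6 and 16.6 TPM in PBS (log2 fold change 0.30 ± 0.06, SE, limma adjusted p = 0.00683). The groups did not overlap, and the share of Bcl2 in the summed survival TPM was 3.60% and 3.67% in CS1 and 2.44% and 2.57% in PBS. Lymphocytes also express Bcl2. The 6 B cell markers summed to 32.2 to 34.8 TPM in CS1 and 54.4 to 55.8 TPM in PBS, and the 7 T cell markers to 20.6 to 21.9 TPM in CS1 and 30.4 to 34.4 TPM in PBS, and the part of these cells in the level of Bcl2 was not tested. Bcl2l1, the gene of BCL-XL, which erythroid cells and platelets also use, had 9.06 and 9.42 TPM in CS1 and 11.3 and 9.11 TPM in PBS. The groups overlapped, and the log2 fold change of -0.12 (95% interval -0.40 to 0.15) did not pass (limma adjusted p = 0.364). Without PBS replicate 1 the value was 0.02. Of 9 erythroid markers 3 passed the filter and 1 was higher in CS1, Hbb-bs, at 13.5 and 12.2 TPM in CS1 and listed at 0.01 in both PBS libraries. The list summed to 36.7 to 43.1 TPM in CS1 and 19.1 to 19.6 TPM in PBS, mostly haemoglobin genes, of which the copies Hba-a1 (26.1 and 0.01 TPM) and Hba-a2 (0.01 and 19.3 TPM) changed places between the CS1 libraries. Their part in the level of Bcl2l1 was not tested. Of 5 megakaryocyte and platelet markers 2 passed the filter and 1 was higher in CS1, Gp1ba (log2 fold change 0.73, limma adjusted p = 0.00241). That list summed to 9.73 and 7.41 TPM in CS1 and to 5.5 and 4.55 TPM in PBS. Its markers Pf4 and Ppbp were listed at the lowest value of the table, 0.01, in all 4 libraries. The part of megakaryocytes and platelets in the level of Bcl2l1 was not tested.

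Bcl2a1b is 1 of several mouse copies of A1, a survival gene induced by NF-kB in blood cells. It had 5.52 and 5.4 TPM in CS1, against 6.80 and 8.01 TPM in PBS (log2 fold change -0.38 ± 0.11, SE, limma adjusted p = 0.0213). The groups did not overlap, but the call was lost without CS1 replicate 1 (adjusted p = 0.0624), CS1 replicate 2 (0.0755) or PBS replicate 2 (0.105, at -0.27) and without the filter (0.144); its alternatives ranged over 0.00417 to 0.144. The copies share much of their sequence: all 3 expressed ones lie on chromosome 9 and have 519 coding bases, of which Bcl2a1b differs from Bcl2a1a at 11 and from Bcl2a1d at 6 (97.9% and 98.8% identity, GENCODE M21). Coding bases 1 to 120 of each are shown because 7 of the 12 positions at which the 3 copies differ lie there, and those positions are in capitals.
Bcl2a1b: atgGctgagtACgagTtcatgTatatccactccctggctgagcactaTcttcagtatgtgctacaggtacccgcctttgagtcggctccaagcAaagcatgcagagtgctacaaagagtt
Bcl2a1a: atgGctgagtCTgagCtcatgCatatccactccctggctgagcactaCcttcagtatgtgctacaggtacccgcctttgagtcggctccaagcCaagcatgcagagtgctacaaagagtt
Bcl2a1d: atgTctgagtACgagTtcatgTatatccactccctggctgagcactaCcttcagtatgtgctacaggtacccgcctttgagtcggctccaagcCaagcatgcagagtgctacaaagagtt
Of all 50-base windows of the Bcl2a1b transcript 57.6% occur without change in another copy, as do 67.7% for Bcl2a1a and 79.5% for Bcl2a1d; at 100 bases the shares are 31.1%, 43.5% and 54.7%. Read length is not given in the labels, so the value of each copy is uncertain. Bcl2a1a was listed at 1.79 and 1.62 TPM in CS1 and at 5.61 and 3.74 TPM in PBS. Bcl2a1d was listed at 0.01 and 1.82 TPM in CS1 and at 5.38 and 4.71 TPM in PBS, and Bcl2a1c at 0.01 in every library. Summed over the copies, A1 stood at 7.33 and 8.85 TPM in CS1, against 17.8 and 16.5 TPM in PBS. The sum fell to 0.472 times the PBS level, a log2 fold change of -1.0 ± 0.10 (SE, limma adjusted p = 0.00039), a larger fall than that of Bcl2a1b alone.

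The order of levels among the members also differed. In CS1 it ran Mcl1, Pmaip1, Bax, Bak1, Bid, Bbc3, Bcl2, Bcl2l11, Bcl2l1 and Bcl2a1b, with no overlap between neighbours. In PBS it ran Mcl1, Bak1, Bax, Bid, Pmaip1, Bcl2l11, Bbc3, Bcl2, Bcl2l1 and Bcl2a1b, where the values of Bbc3 and Bcl2 overlapped and those of the other neighbours did not. Pmaip1 thus stood next to Mcl1 in CS1, and below Bak1, Bax and Bid in PBS.

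**Figure D3:**
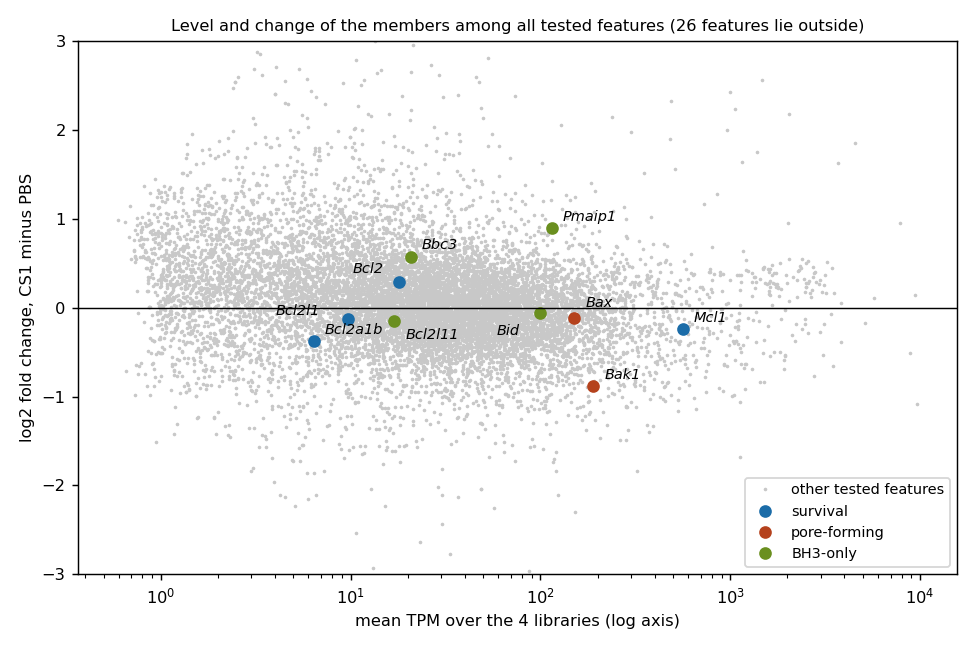
Mean TPM over the 4 libraries (x axis, log scale) against log2 fold change, CS1 minus PBS (y axis), for all tested features in grey and the 10 members coloured by role; 26 features lie outside the axis. Mcl1 is far to the right with a small fall, and Pmaip1 and Bak1 stand near 1 and -1 among features of similar level.

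Survival and death members were next set against each other as sums of TPM per role, with no test because the members were chosen with results of these data known. BH3-only members summed to 290.9 and 286 TPM in CS1, against 215 and 218 TPM in PBS. Pore-forming members summed to 282 and 274 TPM in CS1, against 411 and 398 TPM in PBS. Survival members summed to 546 and 553 TPM in CS1, against 638 and 644 TPM in PBS. The BH3-only sum was thus higher and the other sums were lower in CS1, without overlap. Pmaip1 supplied 52.0% and 51.7% of the BH3-only sum in CS1 and 37.0% and 36.7% in PBS, where Bid was the largest part with 47.5% and 46.9%, against 34.1% and 33.7% in CS1.

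**Figure D4:**
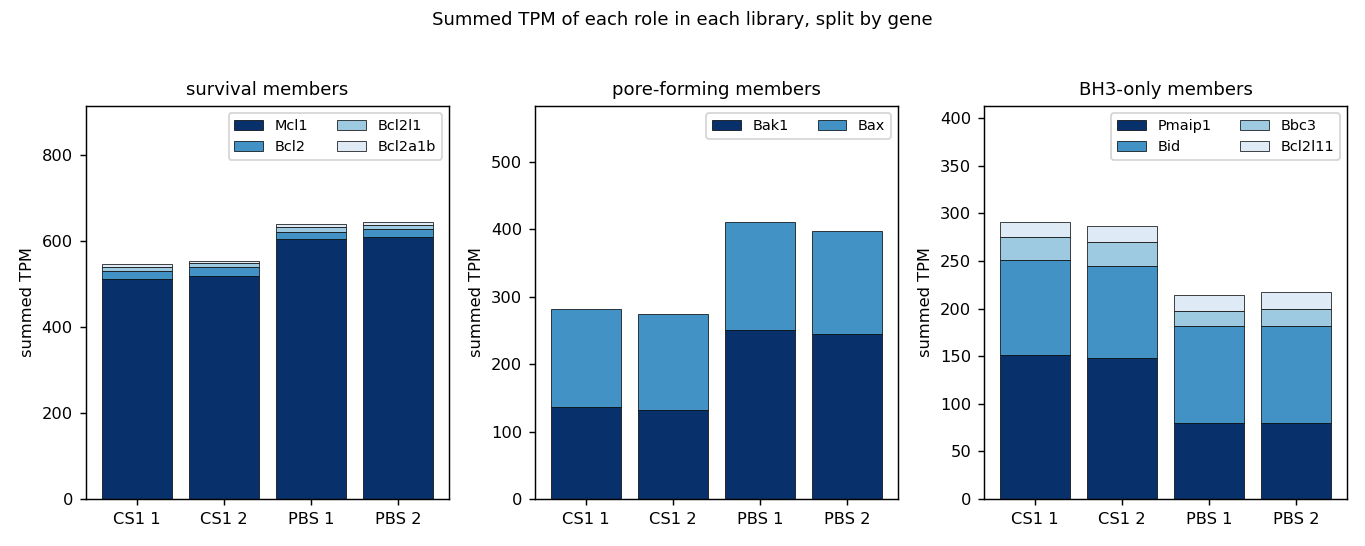
Summed TPM (y axis, from 0) of the survival, pore-forming and BH3-only members in each of the 4 libraries, with the segments of a bar split by gene. Mcl1 makes up nearly all of the survival bars, the difference between CS1 and PBS lies mostly in the Bak1 segment of the pore-forming bars and in the Pmaip1 segment of the BH3-only bars.

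Ratios of levels within a library do not change when a library is rescaled by 1 factor. The summed BH3-only to survival ratio was 0.533 and 0.518 in CS1, against 0.336 and 0.338 in PBS, a log2 difference of 0.64. The pore-forming to survival ratio was 0.518 and 0.496 in CS1, against 0.644 and 0.618 in PBS (-0.32). With both kinds of death member together over survival, the ratio was 1.05 and 1.01 in CS1 and 0.980 and 0.956 in PBS, a log2 difference of 0.09, so this ratio differed far less between the groups than those of each kind alone, though without overlap.

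Among pairs of partners, Pmaip1 to Mcl1 stood at 0.296 and 0.286 in CS1, against 0.132 and 0.131 in PBS (log2 difference 1.15), and Bbc3 to Mcl1 at 0.0481 and 0.0494 in CS1, against 0.0260 and 0.0284 in PBS (0.84). Both ratios were higher in CS1. Bcl2l11 to Bcl2 was 0.801 and 0.809 in CS1, against 1.12 and 1.11 in PBS (-0.47), and Bax to Bcl2 was 7.47 and 7.03 in CS1, against 10.3 and 9.28 in PBS (-0.43). These ratios, both over Bcl2, were lower in CS1. Bcl2l11 to Mcl1 was 0.0307 and 0.0317 in CS1 and 0.0290 and 0.0302 in PBS (0.08), and turned to -0.15 after quantile normalization. Bid to Bcl2l1 overlapped between the groups, at 10.9 and 10.2 in CS1 and 9.03 and 11.2 in PBS.

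Among other BCL2 family genes the falls of the A1 copies were the largest. Of 17 listed, 12 passed the filter, and 1 rose and 5 fell, where 35.3% of all tested features rose and 31.6% fell. The difference from all features was not tested. The median log2 fold change was 0.04, the same as over all features. Bcl2a1c, Bcl2l10, Bok, Hrk and Bcl2l15 were too low to test. Bcl2l12 rose (39.1 ± 4.89 TPM in CS1, 31.6 ± 1.40 TPM in PBS, SD, n = 2 each, limma adjusted p = 0.0265) and Bnip3, a mitochondrial BH3-like protein of mitophagy, fell (29.3 ± 0.544 TPM in CS1, 35.4 ± 3.55 TPM in PBS, limma adjusted p = 0.0205). The remaining falls were those of Bcl2a1a, Bcl2a1d, Bcl2l13 and the autophagy gene Becn1, at log2 fold changes of -1.05, -1.84 (with 1 CS1 library at 0.01), -0.25 and -0.15. The BH3-only genes Bmf and Bad, averaging 54.0 and 36.5 TPM in CS1 and 52.0 and 35.4 TPM in PBS, did not pass (limma adjusted p = 0.243 and 0.627), and are named with the rest of the list after their values were seen. Of the list, 1 fell without the filter, where 2758 of 24497 features fell. Fewer of the list, and fewer of all features, fell without PBS replicate 2. The number of the list that rose lay between 0 and 6 across the alternatives, and the number over all features also changed.

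Downstream of the mitochondria, 8 of 14 tested genes of the apoptosome and caspases fell and 3 rose (median -0.14), where 31.6% of all tested features fell and 35.3% rose; the difference from all features was not tested. Apaf1, the scaffold that cytochrome c activates, had 44.2 and 42.9 TPM in CS1, against 77.5 and 76.4 TPM in PBS (log2 fold change -0.81 ± 0.03, SE, limma adjusted p = 1.66e-05). Casp9, the initiator caspase it recruits, had 19.4 and 19.3 TPM in CS1, against 33.2 and 33.4 TPM in PBS (-0.75 ± 0.05, adjusted p = 5.56e-05). Casp6, an executioner caspase, fell by 0.63 on the log2 scale. Cycs, the gene of cytochrome c, named after its values were seen, had 71.4 and 69.1 TPM in CS1, against 107.6 and 107.0 TPM in PBS. All of these groups were well apart.

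The death receptor list also holds ligands and intracellular partners of the receptors. Of its 8 tested genes 7 fell and 1 rose (median -0.46), against the same 31.6% and 35.3% of all features. The difference was not tested. Fasl, Tnfrsf10b and Tnfsf10 were too low to test. The falls include Cflar (-0.27), which encodes an inhibitor of caspase 8 and is named after its values were seen. Fas, the receptor for FAS ligand, had 9.50 and 9.45 TPM in CS1, against 21.0 and 22.9 TPM in PBS (log2 fold change -1.13 ± 0.07, SE, limma adjusted p = 5.67e-05). Tnfrsf1b, a TNF receptor, had 163 and 162 TPM in CS1, against 316 and 315 TPM in PBS (-0.95 ± 0.02, adjusted p = 3.17e-06), and Ripk1, a kinase of TNF receptor complexes, had a log2 fold change of -0.62. The gene that rose was that of the ligand TNF, Tnf (0.42). The monocyte and macrophage marker sum was also lower in the CS1 libraries, and its part in these falls was not tested. Inhibitors of apoptosis and their antagonists were split, with 5 higher and 6 lower of 13 tested (median -0.07). Birc5, which encodes survivin, a protein of dividing cells, had 112 and 108 TPM in CS1, against 72.5 and 72.9 TPM in PBS (0.59 ± 0.03, adjusted p = 2.94e-05). Naip2, an inflammasome sensor with BIR domains, and Xaf1, a XIAP partner, had log2 fold changes of -0.93 and -0.55. Naip genes are similar copies, so the value of each is uncertain.

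Among 17 tested regulators of the members 4 rose and 5 fell (median -0.07). After TMM rescaling 10 of them fell, where more of all features fell too (4328 of 11855, against 3755 of 11866). Pim3, a survival kinase, had 36.5 and 35.6 TPM in CS1, against 17.4 and 15.8 TPM in PBS (log2 fold change 1.07 ± 0.06, SE, limma adjusted p = 4.3e-05), and Ier3, an immediate early gene, a log2 fold change of 0.80. Foxo3, a transcription factor that can induce Bcl2l11 and Bbc3, had 27.7 and 28.9 TPM in CS1, against 44.9 and 40.6 TPM in PBS (-0.58 ± 0.06, adjusted p = 0.000435). Other known inducers of Pmaip1 or Bbc3 in the list are named after their values were seen. Trp53 (p53) had 59.6 and 62.0 TPM in CS1, against 90.2 and 90.5 TPM in PBS (-0.56, limma adjusted p = 5.06e-05). The stress factor Atf4 had 412 and 422 TPM in CS1, against 294 and 298 TPM in PBS (0.49, limma adjusted p = 2.23e-05). Another stress factor, Ddit3, had 13.3 and 16.3 TPM in CS1 and 17.7 and 17.6 TPM in PBS. It did not pass (-0.25, limma adjusted p = 0.072). Trp73, a p53 relative, was too low to test. The part of any of these factors in the levels of Pmaip1 and Bbc3 was not tested. Over the 5 lists together 14 of 64 tested genes rose and 31 fell (median -0.14), against 35.3% and 31.6% of all features.

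**Figure D5:**
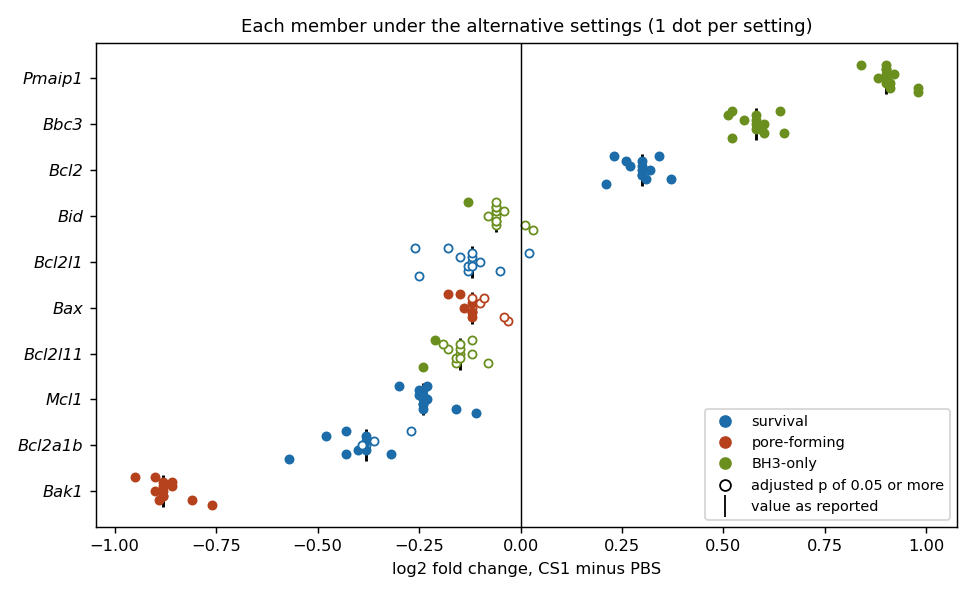
Log2 fold change, CS1 minus PBS (x axis), of each member under each alternative setting, 1 dot per setting, with the value as reported as a bar and open dots where the adjusted p was 0.05 or more. Pmaip1, Bbc3, Bcl2, Mcl1 and Bak1 keep their sign and are filled under every alternative run, while Bax and Bcl2a1b have open dots and Bid and Bcl2l1 cross 0.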

How the data were processed

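Per the labels, 4 libraries of poly(A) RNA from CD45.2-enriched spleen cells were sequenced, 2 from CS1 and 2 from PBS mice. The authors deposited 1 table of 24497 features, whose values were taken as TPM from their decimals and column sums; STAR, RSEM and mm10 appear in the submitters' processing notes without versions or roles, the annotation is not stated, and the lowest listed value, 0.01, stands where a 0 would be expected. TPM keeps no read depth, so no counting interval is given.

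Values were transformed to log2(TPM + 1). Features that 2 or more libraries had at 1 TPM or above were compared in limma 3.58.1 (R 4.3.3, variance trend on, two-sided). Benjamini-Hochberg adjustment ran over all 11866 tested features, with a call at an adjusted p under 0.05. The script was tested on simulated data in which 200 features were changed. It called 97% of log2 changes of 1 but only 36% of those of 0.25, with 18 false calls. In the data 67.0% of features were called, far more than were changed in the simulation, so these shares need not hold there. An exact permutation test of 1 gene with 2 libraries per group cannot give a two-sided p under 0.333. Fold changes on this scale understate the change of low genes. Alternatives were 2 pseudocounts (0.1 and 0.5), 2 filters, variance trend off, 3 scalings, a replicate block, each library left out and the Bcl2a1 copies summed. The members and lists were chosen with earlier results of these data known. Named genes are the 10 members, the Bcl2a1 copies and, in each of 5 wider lists, the 3 called genes of at least 5 TPM with the largest absolute log2 fold change; others are said to be named after their values were seen. Coordinates, exons and coding sequences are from GENCODE M21 (GRCm38, the assembly of mm10) and promoters from RefSeq (GRCm38.p6). Promoters of 9 of the members were searched, and Pmaip1 was left out of this search.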

Additional observations from a re-analysis of the deposited data

How the results depend on the processing

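Under the alternatives run, Pmaip1, Bbc3, Bcl2, Mcl1 and Bak1 kept their direction and stayed past the threshold, with log2 fold changes of 0.84 to 0.98, 0.51 to 0.65, 0.21 to 0.37, -0.30 to -0.11 and -0.95 to -0.76. Bax and Bcl2a1b kept their direction, but their calls were lost under some alternatives, as given in the report. Of the members, 4 fell and 3 rose in the reported fit, where 3755 of 11866 tested features fell and 4194 rose. With no filter 2 members fell and 3 rose, where 2758 of 24497 features fell and 2797 rose. After TMM rescaling 6 members fell and 3 rose, where 4328 of 11855 features fell and 3633 rose. Fewer members, and fewer of all features, fell with a library left out. Signs turned for Bcl2l1 without PBS replicate 1 (0.02, within -0.26 to 0.02 over the libraries left out) and for Bid after quantile normalization (0.03) and with TPM recomputed without short RNAs, haemoglobin and ribosomal protein genes (0.01). In the wider lists 14 genes rose in the reported fit, against 7 with no filter, where the number over all features also dropped (4194 to 2797). Quantile normalization changed the log2 difference of BH3-only to survival to 0.59, of Bax to Bcl2 to -0.25, of Bbc3 to Mcl1 to 0.65, of Pmaip1 to Mcl1 to 1.1, of Bid to Bcl2l1 to 0.31, of Bak1 to Bax to -0.74 and of Bcl2l11 to Mcl1 to -0.15. Without PBS replicate 1 Bid to Bcl2l1 was -0.09, within -0.09 to 0.23 over the libraries left out. The cause of these shifts was not tested. The replicate numbers do not show that libraries are paired (correlation 0.022 between the deviations of same-numbered libraries); with the replicate block 4110 features rose and 3640 fell, against 4194 and 3755, and the calls of the 10 members were the same. Unknown depth limits what low genes such as the Bcl2a1 copies can show.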
